A study of Mus musculus with 10 samples.

Results

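Interferons are cytokines that cells release on infection and that induce a shared set of antiviral genes. Type I interferons act through a receptor linked to the kinases JAK1 and TYK2 and activate the transcription factor complex ISGF3, which holds Stat2 and Irf9 and binds the interferon-stimulated response element (ISRE). Interferon gamma acts through its own receptor on the gamma-activated site (GAS) and through Irf1, and it raises the genes that cut, transport and load peptides for MHC class I. In liver these programmes are known from hepatocytes and from resident immune cells, and adenoviruses are among the agents that set them off.

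The genes described here are 33 listed interferon induced and antigen processing genes, chosen by name. Of these, 31 had at least 1 probe set with a single gene symbol, 47 probe sets in all, out of 34945 such probe sets for 18193 genes. No probe set with a single symbol was used for Isg15, a ubiquitin-like protein whose probe set is shared with Gm9706, and Ifi44 is not analysed here. All 31 passed the filter on low values, which kept 12736 genes with a mean over all arrays of at least 6.06 on the log2 scale. Of the 31, Mx2 alone passed it through 1 group, since its control mean lay under that level.

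Liver RNA of 10 mice was measured, 1 mouse per Affymetrix 430 2.0 array. In 5 mice, replicates 16 to 20, an adenovirus delivered dominant negative cJun, a form that blocks the AP-1 subunit cJun (labelled dn-cJun). The other 5 mice, replicates 11 to 15, received an adenovirus with GFP, a fluorescent protein that serves as control cargo. All 10 are labelled ApoE-/-, so the loss of the lipoprotein gene Apoe is not a difference between the groups by design, and all 10 carry an adenovirus, so no array shows liver without one. The sources used here do not give strain, age, sex, dose or time after infection.

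Apoe went against its label. Its mean log2 signal with SD was 15.66 ± 0.21 over the 5 arrays labelled dn-cJun and 10.25 ± 0.59 over the 5 controls, so every difference below is between groups that also differ in Apoe signal. Controls 14 and 15 had Xist, a transcript made from inactive X chromosomes, at 13.71 and 13.63, while the other 3 controls and the arrays labelled dn-cJun had at most 6.72. Eif2s3y, a gene of the Y chromosome, was at 5.22 and 4.08 in controls 14 and 15. It was at 10.99 to 11.06 in the other 3 controls and at 10.58 to 11.13 in the arrays labelled dn-cJun. By these transcripts controls 14 and 15 read as female and the other arrays as male, so the groups also differ in sex make-up. Results are therefore also given without these 2 controls. Jun, which encodes cJun, averaged 10.37 (SD 0.37) over the arrays labelled dn-cJun and 10.43 (SD 0.24) over the controls. The hepatocyte markers measured, 6 of 7, all passed the filter, the dimmest at percentile 76.4 of all probe sets.

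The promoters of the members show which elements their start regions carry. RefSeq start regions of GRCm38.p6, from 250 bases before to 50 after the start, were matched for 27 of the 33 genes. None was found for Mx1, Mx2, Usp18, Ifi27, Tap2 and Iigp1. Both strands were searched for the ISRE core (GAAA, any 2 bases, GAAA), the GAS element TTCNNNGAA and the AP-1 element TGANTCA. The last is a site of AP-1 dimers. Among the members, no match of one motif overlapped a match of another. The ISRE core was present in 13 of 27 member genes (48.1%), against 3.99% of 27025 genes. The GAS element was present in 6 of 27 (22.2%), against 9.55%, and the AP-1 element in 5 of 27 (18.5%), against 8.97%. The AP-1 matches were those of Gbp2, Ifi35, Ifit3, Irgm1 and Rsad2. A match describes letters in this window and nothing about binding.

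Stretches before the start of 6 genes are shown, 3 antiviral effectors, 1 GTPase, the regulator Irf1 and B2m, to set the elements beside the values below. Each is written 5′ to 3′ on the gene's strand, with the ISRE core, or for Irf1 the GAS element, in capitals. An ISRE core on the opposite strand reads TTTC, any 2 bases, TTTC.
Ifit1, chr19:34640765-34640833, plus strand: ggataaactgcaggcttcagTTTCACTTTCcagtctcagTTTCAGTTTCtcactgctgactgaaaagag
Ifit3, chr19:34583353-34583436, plus strand: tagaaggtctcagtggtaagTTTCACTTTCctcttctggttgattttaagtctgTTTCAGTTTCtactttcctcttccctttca
Rsad2, chr12:26456543-26456592, minus strand: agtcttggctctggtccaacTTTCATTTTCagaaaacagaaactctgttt
Gbp3, chr3:142559979-142560034, plus strand: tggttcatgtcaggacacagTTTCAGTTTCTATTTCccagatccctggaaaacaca
Irf1, chr11:53769904-53769952, plus strand: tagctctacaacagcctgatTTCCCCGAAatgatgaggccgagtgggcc
B2m, chr2:122147528-122147577, plus strand: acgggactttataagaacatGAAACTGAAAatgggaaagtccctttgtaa

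Ifit1 and Ifit3 each hold 2 separate ISRE cores, and the 2 of Gbp3 overlap. B2m carries an ISRE core too, and its signal below, near the top of the scale, had the smallest control SD of the members.

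**Figure D1:**
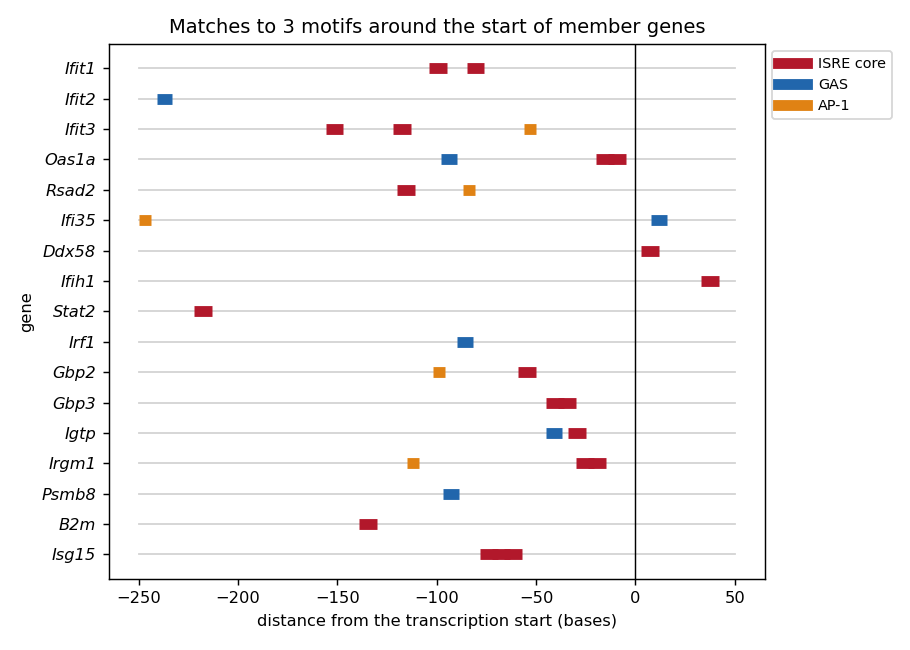
Position of each motif match (bars) around the transcription start (0, vertical line) for the member genes with at least 1 match; the x axis is the distance in bases and grey lines span the region searched. ISRE cores of Gbp3, Irgm1, Oas1a and Isg15 run into each other because their matches overlap.

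Among the 31 members, 1 was higher in the arrays labelled dn-cJun and none lower (limma, Benjamini-Hochberg adjusted p under 0.05 over all genes). Over all 12736 genes 0.345% were higher (44) and 0.432% lower (55). With the values as deposited these counts were 22 and 468, and with equal array medians 20 and 45. At an unadjusted p under 0.05 there were 3 of 31 members, Mx2, Oasl1 and Ifit1, beside 14.9% of all genes. This count moved with the setting. It was 9 of 31 members with the values as deposited (3251 of 12741 genes), 7 with equal array medians (1718 of 12741 genes), 6 without controls 14 and 15 (1742 of 12758 genes) and 8 without control 12 (2096 of 12757 genes). The median log2 fold change of the members was -0.05, beside 0.0015 over all genes. Mx2 was the only member whose group ranges did not overlap, which 4.22% of all genes showed. In bulk RNA, fewer cells of a type and less RNA per cell cannot be told apart. Without controls 14 and 15 no member passed, where 0.408% of all genes did.

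The gene that rose was Mx2, an interferon induced GTPase of the dynamin family. Its log2 signal was 6.93, 7.43, 6.93, 7.06 and 6.96 in arrays 16 to 20 labelled dn-cJun, against 5.76, 5.50, 5.80, 5.43 and 5.78 in controls 11 to 15. Every array labelled dn-cJun lay above every control, and array 17 was the highest. This came to a log2 fold change of 1.41 (SE 0.23), or 2.65-fold (limma adjusted p = 0.0214). Among rises this was the 10th largest of all genes tested. Because Mx2 entered the test through the arrays where it is high, the fit with no filter is given too, and there the log2 fold change was again 1.41 (limma adjusted p = 0.0213). The deposited intensities ran from 97.7 to 137.7 in the arrays labelled dn-cJun and from 24.2 to 50.6 in the controls. On its array Mx2 stood at percentiles 52.3 to 59.6 of all probe sets in the arrays labelled dn-cJun and at 25.2 to 31.4 in the controls. The control values are thus dim, and whether they are above background was not tested, since detection calls are not used here. The fold is therefore a ratio of measured signals, with an uncertain lower side. A single probe set reads Mx2. RefSeq lists mouse Mx1 and Mx2 as transcribed pseudogenes in the reference strain C57BL/6J.

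The call of Mx2 was narrow. With single arrays left out it held in 7 of 10 fits and was lost without array 17 (1.32, limma adjusted p = 0.0571), without array 19 (1.41, limma adjusted p = 0.0536) and without array 20 (1.44, limma adjusted p = 0.0503), all labelled dn-cJun. Without controls 14 and 15 the log2 fold change was 1.36 and the adjusted p 0.0550.

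Mx1 is the other Mx gene. Its log2 signal was 8.08, 8.90, 8.58, 8.29 and 8.06 in arrays 16 to 20 labelled dn-cJun, against 8.62, 7.38, 8.84, 9.05 and 8.91 in controls 11 to 15. The groups overlapped, with control 12 the lowest array of all. Its log2 fold change was -0.18 (SE 0.28, limma adjusted p = 0.819). As a difference on the same array, Mx2 minus Mx1 was -1.15, -1.47, -1.65, -1.23 and -1.10 in arrays 16 to 20 labelled dn-cJun, against -2.86, -1.88, -3.04, -3.61 and -3.13 in controls 11 to 15. The group means differed by 1.59. Mx2 was picked for its large change, so these values are a description with no test.

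Both Mx genes lie on chromosome 16. The 7 tested of 8 listed genes around Mx2 included none past the threshold, with a median log2 fold change of 0.01, or 0.10 without controls 14 and 15. Tmprss2, a membrane protease and the next gene on one side, was at -0.05 (SE 0.16), and Bace2, a protease beside Mx1, had the smallest p at 0.20 (SE 0.14, limma adjusted p = 0.567).

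**Figure D2:**
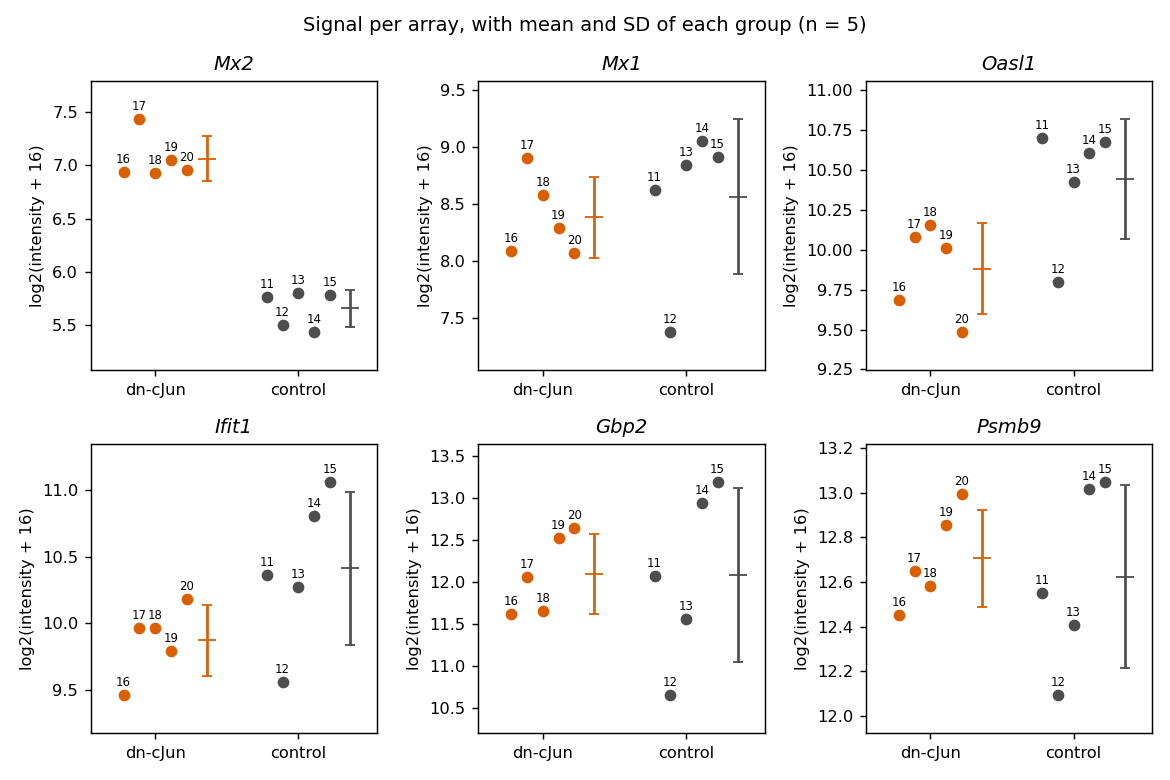
Log2(intensity + 16) after quantile normalization for 6 members, 1 point per array with its replicate number, and the mean with SD of each group beside the points (n = 5). Mx2 is the only one of the 6 whose groups do not overlap, and control 12 is the lowest control in the other 5.

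The other 11 effectors of the type I response did not pass. Of all 12 tested, 10 had a log2 fold change below 0 and the median was -0.14, but without controls 14 and 15, 8 of 12 were above 0 and the median was 0.10. Oasl1, a relative of the oligoadenylate synthetases that restrains Irf7 translation in mice, had the smallest p after Mx2. It was at 9.68, 10.08, 10.15, 10.01 and 9.48 in arrays 16 to 20 labelled dn-cJun, against 10.70, 9.80, 10.43, 10.61 and 10.68 in controls 11 to 15. Apart from control 12, every control lay above every array labelled dn-cJun. Oasl1 thus differed by -0.56 on the log2 scale (SE 0.18, limma adjusted p = 0.158). Without control 12 it was -0.72 and passed (limma adjusted p = 0.0269), and it also passed with the values as deposited (-0.77, limma adjusted p = 0.0403), where all genes shifted by a median of -0.19. Without controls 14 and 15 it was -0.43 (limma adjusted p = 0.380).

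Ifit1 binds foreign RNA ends and blocks their translation. It was at 9.46, 9.96, 9.97, 9.79 and 10.18 in arrays 16 to 20 labelled dn-cJun, against 10.36, 9.56, 10.27, 10.81 and 11.06 in controls 11 to 15. Only control 12 lay among the arrays labelled dn-cJun. Ifit1 differed by -0.54 on the log2 scale (SE 0.23, limma adjusted p = 0.292). With controls 14 and 15 left out this was -0.19. Ifit3, its partner, was at -0.30 (SE 0.27), and Ifit2, which lies in the same gene cluster on chromosome 19, at -0.07 (SE 0.22). Both had positive values without controls 14 and 15, 0.18 for Ifit3 and 0.31 for Ifit2.

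Rsad2, which encodes viperin, an enzyme that makes a chain terminator of viral RNA synthesis, had 3 probe sets. The brightest was at 11.15, 11.80, 11.65, 11.85 and 11.51 in arrays 16 to 20 labelled dn-cJun, against 12.38, 11.27, 11.70, 12.30 and 12.30 in controls 11 to 15. The groups overlapped through control 12 and control 13. This gave -0.40 (SE 0.20, limma adjusted p = 0.382), and the other 2 probe sets gave -0.55 and -0.38.

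The other effectors had smaller differences. Oas1a, an oligoadenylate synthetase, was at -0.05 (SE 0.19), and its relative Oasl2 at -0.15 (SE 0.26). Usp18, which removes Isg15 from proteins and damps receptor signalling, was at -0.13 (SE 0.13). Ifi35 was at -0.07 (SE 0.12), with 2 further probe sets at -0.12 and 0.05. Ifi27 was above 0 at 0.05 (SE 0.11), with a further probe set at 0.13. The probe set of Ifi35 used here and the further one of Ifi27 carry the suffix _s_at, which marks probes that can match other transcripts. The suffix _x_at also marks such probes. It is on the Ifi35 probe set at 0.05 and on a further probe set each of Gbp2, Psmb8 and Tap1 below.

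The sensors and transcription factors of the pathway had small differences too. None of the 6 passed, 5 were below 0, and their median was -0.07. Without controls 14 and 15, 4 were above 0 and the median was 0.04. Ddx58, which encodes the RNA sensor RIG-I, was at -0.05 (SE 0.11) and Ifih1, which encodes the RNA sensor MDA5, at -0.06 (SE 0.09). A dim further Ddx58 probe set gave -0.83 (limma adjusted p = 0.496 among all probe sets), and another gave -0.05. Stat2 and Irf9, both parts of ISGF3, were at -0.15 (SE 0.09) and 0.03 (SE 0.10), with a further Stat2 probe set at -0.02. Irf1, a factor of the interferon gamma response, was at -0.09 (SE 0.17).

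Irf7, which amplifies type I interferon production, had the smallest p of these 6. It was at 11.24, 11.74, 11.61, 12.07 and 11.89 in arrays 16 to 20 labelled dn-cJun, against 11.86, 11.75, 11.90, 12.14 and 12.23 in controls 11 to 15. The groups overlapped, and array 16 was the lowest. The log2 fold change was -0.27 (SE 0.14, limma adjusted p = 0.399).

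The GTPases induced by interferon gamma, which attack the vacuoles of intracellular pathogens, had group means close to each other. None of the 6 passed, 5 were above 0, and the median was 0.02. Gbp2 was at 11.62, 12.06, 11.65, 12.52 and 12.64 in arrays 16 to 20 labelled dn-cJun, against 12.07, 10.66, 11.56, 12.94 and 13.19 in controls 11 to 15. All arrays labelled dn-cJun lay inside the range of the controls. Its log2 fold change was 0.02 (SE 0.40), with -0.24 from the further probe set, and 0.67 without controls 14 and 15 (limma adjusted p = 0.351).

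Gbp3 was close-set in the arrays labelled dn-cJun and wide in the controls. It was at 10.64, 10.73, 10.72, 10.78 and 10.98 in arrays 16 to 20 labelled dn-cJun, against 11.36, 9.77, 10.50, 11.62 and 11.81 in controls 11 to 15. Its SD was 0.13 in the arrays labelled dn-cJun and 0.85 in the controls, and the log2 fold change was -0.24 (SE 0.31). Of the immunity related GTPases, Igtp was at 0.06 (SE 0.19), Ifi47 at 0.06 (SE 0.20) and Iigp1 at 0.02 (SE 0.08), with a further Iigp1 probe set at 0.10. Irgm1 had a mean of 12.98 in both groups (SE of the difference 0.19).

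Antigen processing genes had small differences between the group means. None of 7 passed, 5 were above 0, and the median was 0.04. Psmb8, Psmb9 and Psmb10, the catalytic subunits that turn the proteasome into the immunoproteasome, were at 0.04 (SE 0.16), 0.08 (SE 0.17) and 0.12 (SE 0.18). Psmb9 was at 12.45, 12.65, 12.58, 12.86 and 12.99 in arrays 16 to 20 labelled dn-cJun, against 12.55, 12.09, 12.41, 13.02 and 13.05 in controls 11 to 15. The groups overlapped, with controls 14 and 15 the highest and control 12 the lowest of all arrays. Tap1 and Tap2, the paired chains of the peptide transporter, were at -0.005 (SE 0.17) and 0.04 (SE 0.20), and Tapbp, which encodes the loading factor tapasin, at -0.01 (SE 0.19). Further probe sets gave 0.57 for Psmb8, 0.09 for Tapbp and -0.44 for Tap1. For Tap1, 2 more below the level of the filter gave -0.61 and 0.33. None passed the threshold. On the further Psmb8 probe set control 12 was at 5.23 and the other controls at 7.25 to 7.85.

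B2m, the light chain of MHC class I, had the smallest spread of the members. It was at 15.38, 15.48, 15.44, 15.47 and 15.46 in arrays 16 to 20 labelled dn-cJun, against 15.31, 15.39, 15.46, 15.41 and 15.41 in controls 11 to 15. The log2 fold change was 0.05 (SE 0.05), and the further probe set gave -0.08. With array medians made equal in place of quantile normalization the log2 fold change was 0.30 (limma adjusted p = 0.305). Quantile normalization holds the brightest signals close together across arrays. How far this sets the small spread of B2m was not tested.

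**Figure D3:**
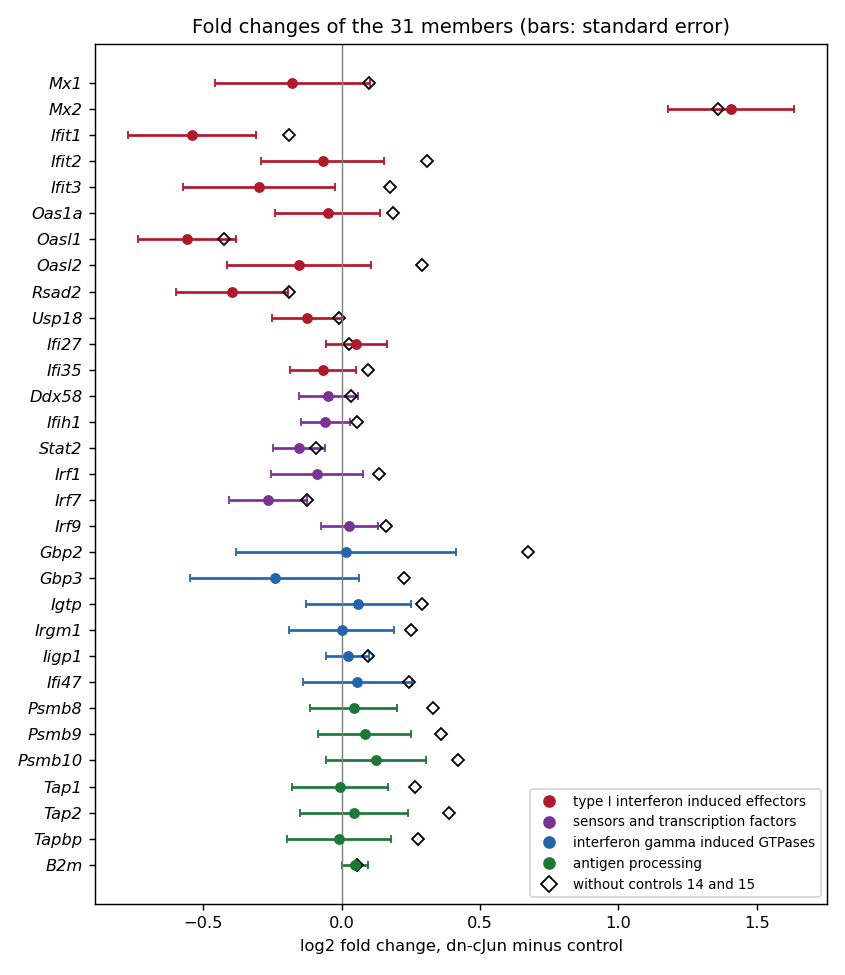
Log2 fold change of each of the 31 members (circles, arrays labelled dn-cJun minus controls) with its standard error, coloured by role, and the value without controls 14 and 15 (open diamonds). Mx2 stands at 1.41 while the other 30 lie between -0.56 and 0.12, and most diamonds lie to the right of their circles.

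Mx2 stood apart from the list in size. The other 30 members had log2 fold changes from -0.56 to 0.12, 18 below 0 and 12 above. Its control SD was 0.18, at percentile 37.5 of all genes tested, and 5 other members, B2m, Stat2, Ifi27, Ifih1 and Iigp1, had a lower one. The deposited control intensities of Mx2 ran from 24.2 to 50.6, and adding 16 to such dim values narrows their spread on the log2 scale. Its SD is therefore not on equal terms with those of the brighter members. Of the 31 members, 20 had a control SD above percentile 75. In the arrays labelled dn-cJun 4 of 31 did. The highest control SDs were those of Gbp2 at 1.03 (percentile 99.0), Gbp3 at 0.85 and Ifit3 at 0.69, and that of B2m was 0.06 (percentile 2.59). The median SD of the 31 members was 0.23 in the arrays labelled dn-cJun and 0.41 in the controls, or 0.29 in the controls without 14 and 15. For antigen processing it was 0.22 in the arrays labelled dn-cJun and 0.41 in the controls, but 0.19 in the controls without 14 and 15. For the GTPases it was 0.19 in the arrays labelled dn-cJun and 0.49 in the controls, and 0.54 in the controls without 14 and 15. Over all genes tested the median SD was 0.20 in the arrays labelled dn-cJun and 0.22 in the controls. With controls 14 and 15 left out the control value over all genes was 0.20. SDs without these controls rest on fewer arrays. With all controls kept, the SD was smaller in the arrays labelled dn-cJun in 28 of 31 members, which 53.4% of all genes showed.

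Most members shared an order of the control arrays. Control 12 was the lowest control in 29 of 31 members (21.0% of all genes) and the lowest of all 10 arrays in 22 (9.92% of all genes). The 2 exceptions among controls were Mx2, where control 14 was lowest, and B2m, where control 11 was. Control 14 or 15 was the highest control in 26 of 31 members (37.9% of all genes), and both lay above the other 3 controls in 21 (16.8% of all genes). Both features held together in 21 of 31 members (67.7%) and in 6.24% of all genes. Among the arrays labelled dn-cJun, array 16 was the lowest in 22 of 31 members (20.2% of all genes).

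The mean of the 30 members without Mx2, each centred over the 10 arrays, put this order in numbers. It was -0.29, 0.02, -0.10, 0.07 and 0.07 in arrays 16 to 20 labelled dn-cJun, against 0.08, -0.54, -0.12, 0.36 and 0.44 in controls 11 to 15. The arrays labelled dn-cJun thus lay within the range of the controls. The interferon gamma induced GTPases gave the widest control range, from -0.87 in control 12 to 0.54 in control 15. The type I effectors without Mx2 ran from -0.58 to 0.50 in the same arrays, antigen processing from -0.45 to 0.39, and the sensors and factors from -0.22 to 0.28. The roles parted on some arrays. In array 20 labelled dn-cJun the type I effectors were at -0.10 and the GTPases at 0.25, and in control 11 the type I effectors were at 0.19 and antigen processing at -0.11. Mx2, centred the same way, was between -0.93 and -0.55 in the controls, with control 14 at the lower end.

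**Figure D4:**
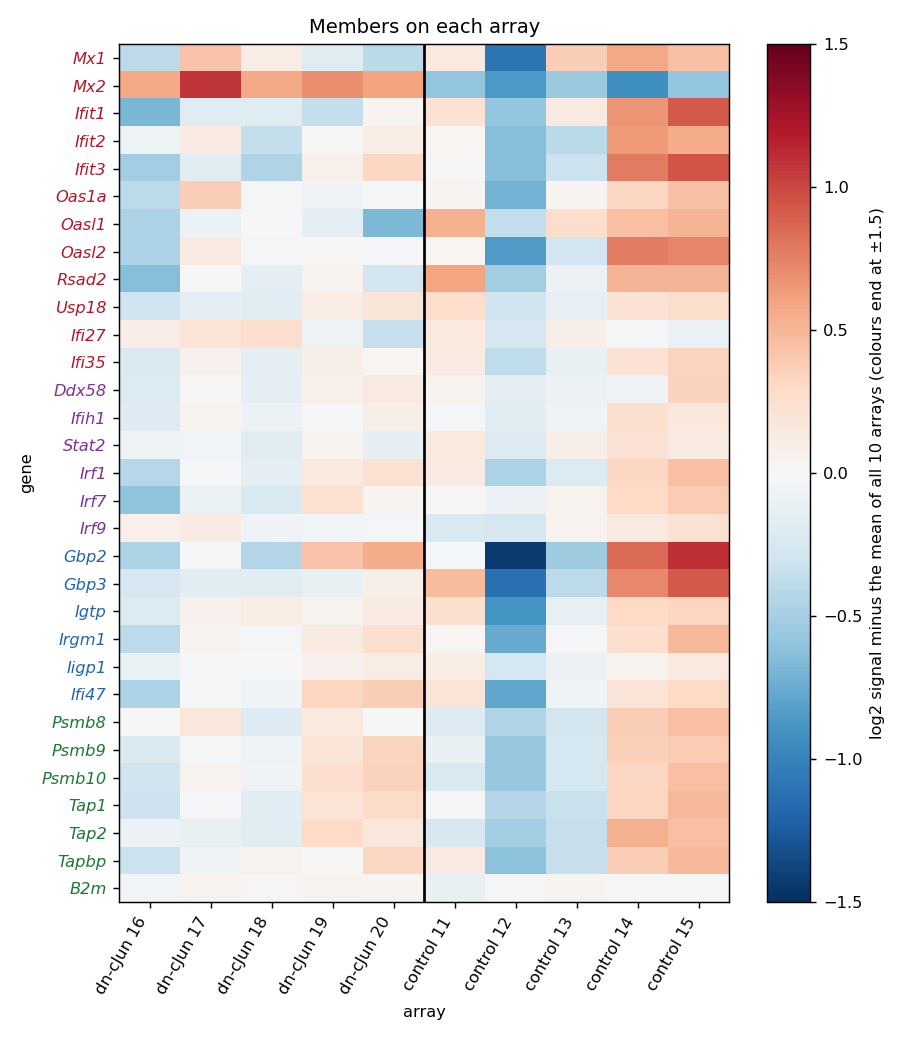
Log2 signal of each member (rows, names coloured by role as in the plot of fold changes) on each array (columns), minus the mean of the 10 arrays; red is above and blue below that mean, with colours ending at 1.5 either way. Control 12 is blue and controls 14 and 15 are red in most rows, and only the row of Mx2 splits at the line between the groups.

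**Figure D5:**
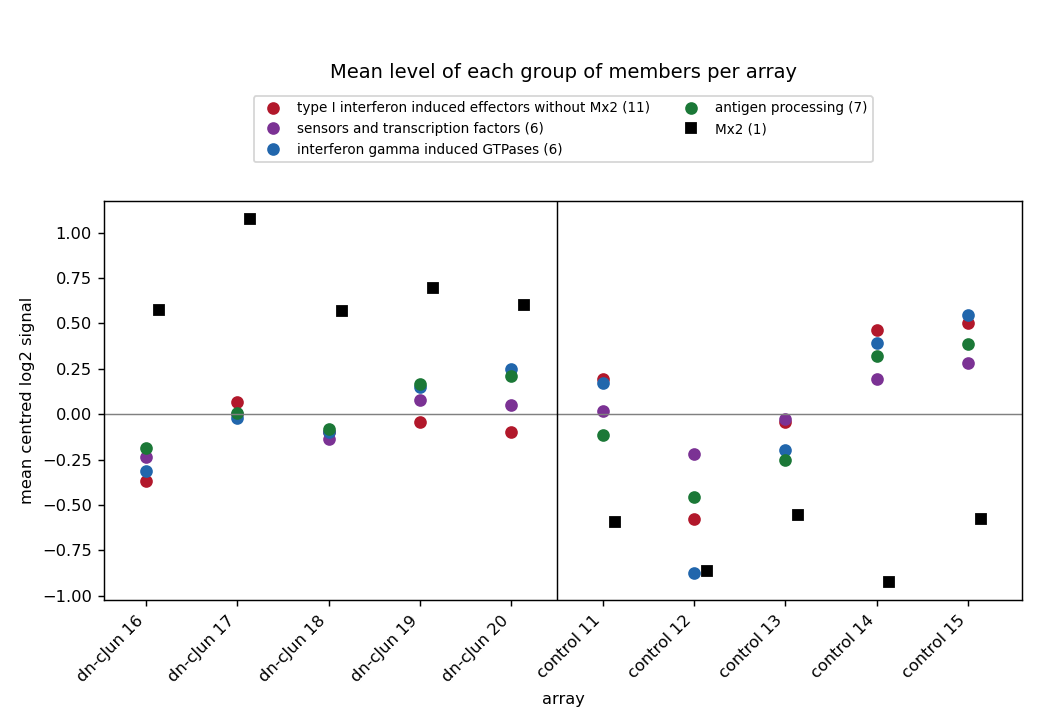
Mean centred log2 signal per array for each role (circles) and for Mx2 (squares), with the number of genes in brackets. All 4 roles lie below 0 in control 12, with the GTPases at -0.87, and above 0 in controls 14 and 15, while in array 20 the type I effectors are at -0.10 and the GTPases at 0.25. The Mx2 squares separate the groups.

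Markers of other cells moved in part with this order, and their share in it was not tested. The summed signal of the T and NK cell markers, 11 of 12 measured, in linear intensity after normalization, was 2325 to 3664 in the arrays labelled dn-cJun and 1969 to 3153 in the controls. Control 12 was the lowest of all arrays and control 14 the highest control. The 11 of 11 macrophage and Kupffer cell markers summed to 29246 to 34820 in the arrays labelled dn-cJun and 29630 to 46778 in the controls, with control 12 lowest and control 14 highest among controls. Of these 11, 8 had a log2 fold change below 0 and 3 above, with a median of -0.15. Without controls 14 and 15, 6 were above 0 and the median was 0.02. Lyz2 fell by 0.70 (limma adjusted p = 0.0294) and Cd5l fell by 0.57 (limma adjusted p = 0.0323) in the arrays labelled dn-cJun. The other markers of this list did not pass, and over all genes 0.432% were called lower. The call of Cd5l was lost when controls 14 and 15 were omitted (-0.49, limma adjusted p = 0.105). That of Lyz2 was kept (-0.65, limma adjusted p = 0.0367), in a fit that called 0.408% of all genes. The 6 of 6 dendritic cell markers, of which 3 passed the filter, summed to 9487 to 11946 in the arrays labelled dn-cJun and 8307 to 10531 in the controls, where control 12 was the lowest array. Bst2, which is also among the other interferon induced genes below, made up 93.7% to 97.4% of that sum. The other 5 summed to 325 to 719 in the arrays labelled dn-cJun and 271 to 431 in the controls, with control 12 at 303 and control 13 lowest, a sum added after seeing the data. The neutrophil and monocyte markers, 4 of 6 measured, summed to 5462 to 20567 in the arrays labelled dn-cJun and 2948 to 22557 in the controls, with control 12 the lowest array. Endothelial markers summed to 6019 to 6810 in the arrays labelled dn-cJun and 5725 to 6440 in the controls, B cell markers to 624 to 1048 in the arrays labelled dn-cJun and 733 to 978 in the controls, and neither was lowest in control 12. Control 11 lay above control 15 in the T and NK cell sum (2919 and 2882) and the macrophage sum (42719 and 42602). Control 13 lay above control 14 in the dendritic cell sum (10403 and 10386). It was also above control 15 in the neutrophil and monocyte sum (12464 and 7562). Controls 14 and 15 were thus not both above the rest in these sums. The dimmest measured marker of these lists, a dendritic one, stood at percentile 15.4 of all probe sets.

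RNA quality was read from the 3 prime against the 5 prime control probe sets, as a log2 difference. For Gapdh it was -0.52 to -0.35 in the arrays labelled dn-cJun and -0.51 to -0.40 in the controls, with control 12 at -0.51. For Actb it was 0.43 to 0.60 in the arrays labelled dn-cJun and 0.40 to 0.52 in the controls, with control 12 at 0.48. RNA of control 11 is labelled as extracted with Trizol, and the labels of the other 9 arrays name Affymetrix. The median deposited intensity of an array was 85.1 to 127.1.

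Leaving out controls 14 and 15 moved most members up. The median of the 31 members was then 0.18, with 25 above 0, beside a median of 0.0068 over all genes. All 7 antigen processing genes and all 6 GTPases were above 0, with medians of 0.33 and 0.25. None passed, and the smallest adjusted p among antigen processing genes was that of Psmb8 at 0.33 (limma adjusted p = 0.172). Without control 12 alone the median of the members was -0.17. Leaving out array 16 labelled dn-cJun alone gave a median of 0.01. The sign of the members' shift therefore depended on which arrays were kept, in either group.

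Genes upstream in the pathway were measured from a list of 14 interferons and receptors, of which 8 were tested and none passed. Il10rb, a receptor chain shared by interferon lambda and interleukin 10, had the smallest p. It was at 10.04, 10.05, 9.84, 9.89 and 10.03 in arrays 16 to 20 labelled dn-cJun, against 10.32, 10.24, 10.40, 10.45 and 10.25 in controls 11 to 15. These ranges did not overlap, and the log2 fold change was -0.36 (SE 0.08, limma adjusted p = 0.0576). Among nucleic acid sensors and adaptors 12 of 13 were below 0 with none past the threshold, and without controls 14 and 15, 5 were above 0. Tlr3, the receptor of double-stranded RNA, had the smallest p at -0.44 (SE 0.15, limma adjusted p = 0.181). Of 12 signalling genes and inhibitors 4 were above 0, or 7 without controls 14 and 15, and none passed. Jak2, a kinase of the interferon gamma receptor, had the smallest p at -0.23 (SE 0.10, limma adjusted p = 0.320).

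A list of 33 other interferon induced genes held no call either. None of 30 tested passed, 22 were below 0, and their median was -0.08, or 0.09 without controls 14 and 15. Ifitm1, a membrane protein that hinders virus entry, had the smallest p at -0.49 (SE 0.20, limma adjusted p = 0.268). Control 12 was the lowest control in 24 of these 30 genes and control 14 or 15 the highest in 25. Class I molecules and loading factors had a median of -0.05 over 11 genes with 5 above 0, and 0.09 with 8 above 0 without controls 14 and 15. None passed, and Calr, the chaperone calreticulin, had the smallest p at -0.13 (SE 0.06, limma adjusted p = 0.349). The constitutive proteasome subunits that the immunoproteasome replaces, Psmb5, Psmb6 and Psmb7, had log2 fold changes from 0.0081 to 0.03, with Psmb7 at 0.03 (SE 0.06, limma adjusted p = 0.859), and none was above 0 without controls 14 and 15. In none of these 3 was control 12 the lowest control or control 14 or 15 the highest, unlike in Psmb8, Psmb9 and Psmb10.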

How the data were processed

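The authors deposited 1 intensity per probe set and array, on a linear scale as judged from the values. The sources used here do not name the software. From these deposited intensities log2(intensity + 16) was taken and quantile normalized (limma 3.58.1, R 4.3.3), and 64 array control probe sets of 45101 were then dropped. The brightest single-symbol probe set stood for each gene. Genes whose mean was under the 40th percentile over probe sets were not tested. Fold changes on this scale understate those of dim genes. Groups were compared with limma (lmFit, eBayes with trend) in two-sided tests, adjusted by Benjamini-Hochberg over all genes at 0.05, after checks on simulated data. An exact permutation test of Mx2 minus Mx1 was set out, but Mx2 was chosen for its change, so only the values are given. The number of arrays limits the precision.

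Members, lists and alternatives were chosen with earlier results of these data known. All measured members were named, and of each pathway list those past the threshold or, with none, the gene with the smallest p. Alternatives covered scaling, pseudocount, filter, probe set choice, the variance model and arrays left out.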

Additional observations from a re-analysis of the deposited data

Results flagged for a closer look

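In 4 of 62 groups of 5 arrays examined over the 31 members, 1 array stood apart by Dixon's criterion, and chance alone gives about 1 in 20. Mx2 was at 7.43 in array 17 labelled dn-cJun, with the next array at 7.06. Oasl2 was at 9.88 in array 16 labelled dn-cJun, with the next at 10.31, and Igtp was at 14.76 in the same array, with the next at 15.02. Mx1 was at 7.38 in control 12, with the next control at 8.62.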

How the results depend on the processing

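Mx2 stayed above 0 in every alternative that could test it, from 0.88 (pseudocount 64) to 1.75 (pseudocount 1), with limma adjusted p from 0.00113 to 0.0571 (0.00113 without trend). The filter at the 60th percentile left it untested, so no member was called there (0 of 30). It missed the threshold without controls 14 and 15 (1.36, 0 members called). Over single arrays left out, its log2 fold change ran from 1.32 (without array 17 labelled dn-cJun) to 1.44, and 0 to 2 members were called. The second member was Oasl1, without control 12 and with the values as deposited (2 members). Of 690 values of the other 30 members under alternatives, 680 moved by less than the SD and stayed uncalled, 8 moved by more and 2, both of Oasl1, were called. This measure is lenient for members with a wide SD. Gbp2, with a control SD of 1.03, counts as unmoved though it went from 0.02 to 0.67 without controls 14 and 15. The count does not say whether the sign held. Genes called over all genes numbered 99. Equal array medians gave 65, the values as deposited 490, the mean of probe sets 44, every probe set 150, no trend 9 and the fit without controls 14 and 15 gave 52. With single arrays left out they ran from 13 (without array 17 labelled dn-cJun) to 199 (without control 12). The cause was not tested. No paired analysis was possible because the groups share no replicate numbers. Mx2 is dim in the controls, which limits how far its fold can be read.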

Other observations

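The order of controls seen in the members, with control 12 lowest and controls 14 and 15 both above the other 3, held in 795 of 12736 genes tested. The genes below were chosen after their values were seen, for a wide control range with that order. Hao2, a hydroxyacid oxidase, was at 6.89 to 7.41 in the arrays labelled dn-cJun, and among controls at 4.86 in control 12 and 9.09 and 10.03 in controls 14 and 15. Cyp3a44, a cytochrome P450 known as female-biased in mouse liver, was at 5.79 to 7.19 in the arrays labelled dn-cJun, and at 5.73 in control 12 and 8.05 and 9.09 in controls 14 and 15. Nt5e, an ecto-nucleotidase, was at 7.25 to 8.33 in the arrays labelled dn-cJun, and at 7.17 in control 12 and 10.24 and 10.46 in controls 14 and 15. Oas3, an oligoadenylate synthetase, was at 6.05 to 7.25 in the arrays labelled dn-cJun, and at 5.28 in control 12 and 7.52 and 7.72 in controls 14 and 15.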
